A study of Mus musculus with 6 samples.

Results

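Complement transcripts were followed in mouse monocytes through 9 genes of 24047 in the count table. The genes were taken by symbol: the C1q subunits C1qa, C1qb and C1qc, the factors C3, C4b, Cfb and Cfp, and the anaphylatoxin receptors C3ar1 and C5ar1. All 9 had a row and passed the filter on low counts. The kidney group held 3 libraries (replicates 7, 8 and 22), which the labels call double_pos, and the spleen and bone marrow group held 3 (replicates 2, 24 and 26), called double, with no marker named for either. Both groups came from wild-type mice, strain given as C5/Bl6, aged 8 to 10 weeks, in which nephrotoxic nephritis had been induced and which were killed on day 13. No healthy mice were sequenced. Nephrotoxic nephritis is a glomerular injury driven by antibody against the kidney filter. The series used 10 such mice, and whether a library is 1 animal or a pool is not given, so the spread behind each p-value may be technical. Enrichment with a monocyte kit and sorting are described for kidney cells only, so tissue and handling cannot be told apart.

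Complement is a cascade of plasma proteins that marks targets for uptake and calls in leukocytes. C1q, built of A, B and C chains from C1qa, C1qb and C1qc, recognises bound antibody and starts the classical pathway, which cuts C4 (from C4b) and then C3, the point at which all pathways meet. Factor B (Cfb) and properdin (Cfp) drive and stabilise the alternative pathway. The released fragments C3a and C5a act on leukocytes through the receptors encoded by C3ar1 and C5ar1. C1q is mostly made by tissue macrophages and related myeloid cells, C3 and C4 mostly by the liver, and properdin by myeloid cells.

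Libraries held between 3492391 counts (kidney replicate 22) and 9727489 counts (spleen and marrow replicate 26). In log2 CPM across genes, which are not independent replicates, kidney replicate 22 correlated with kidney replicates 7 and 8 at Pearson 0.800 each and those with one another at 0.930, while the spleen and marrow pairs lay between 0.980 and 0.988. Counts of replicates 24 and 26 were closer than those of any other within-group pair, with 2.86 chi-square units per degree of freedom against 22.2 to 59.7, yet further apart than sampling noise. They were counted as 2 libraries. Of the defining monocyte markers, Csf1r, the growth factor receptor, had 457, 277 and 371 CPM in kidney replicates 7, 8 and 22 and at 109, 119 and 120 CPM in spleen and marrow replicates 2, 24 and 26. The chemokine receptor gene Ccr2 had 764 to 1168 CPM in kidney and 623 to 705 CPM in spleen and marrow, so no library lacked them. Ly6c2, which marks classical monocytes, had 317 to 810 CPM in kidney and 5020 to 5860 CPM in spleen and marrow. Markers of other cells were present: tubule markers (11 of 11 listed had counts in kidney) summed to 285 to 1799 CPM in kidney and 24.2 to 24.7 CPM in spleen and marrow, endothelial markers (8 of 8) to 13.2 to 828 and 4.38 to 10.1 CPM, and neutrophil markers (8 of 9 had a row) to 1074 to 43717 and 23372 to 30025 CPM. Kidney replicate 8 held the highest endothelial sum and kidney replicate 22 the highest tubule and neutrophil sums. S100a8 and S100a9, which monocytes also express, were the largest parts of the neutrophil sum in each library. In spleen and marrow replicate 2 they had 9919 and 6804 CPM, beside 1921 and 2456 CPM for Camp and Ngp. The neutrophil sum is therefore not a measure of neutrophils alone. In bulk samples, fewer cells of a type and less RNA per cell cannot be told apart.

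The C1q genes lie side by side on mouse chromosome 4. Windows of 300 bases around the start site (250 before and 50 after, RefSeq, build GRCm38.p6) were matched by symbol for 6 of the 9 members: C1qb, C1qc, C3ar1, C5ar1, C3 and Cfp. The windows of C1qb, C1qc and C3ar1, the matched members with the largest rise in kidney, and of C3, the member that fell, are shown 5′ to 3′ on the gene's strand. Capitals mark the motif matches described after them.
C1qb (chr4:136886151-136886450, strand -): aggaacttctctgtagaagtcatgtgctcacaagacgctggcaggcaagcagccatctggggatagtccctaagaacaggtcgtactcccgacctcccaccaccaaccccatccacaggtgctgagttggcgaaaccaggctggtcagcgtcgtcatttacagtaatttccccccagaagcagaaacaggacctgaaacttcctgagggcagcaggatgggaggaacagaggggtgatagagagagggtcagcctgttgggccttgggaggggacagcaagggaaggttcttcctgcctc
C1qc (chr4:136892865-136893164, strand -): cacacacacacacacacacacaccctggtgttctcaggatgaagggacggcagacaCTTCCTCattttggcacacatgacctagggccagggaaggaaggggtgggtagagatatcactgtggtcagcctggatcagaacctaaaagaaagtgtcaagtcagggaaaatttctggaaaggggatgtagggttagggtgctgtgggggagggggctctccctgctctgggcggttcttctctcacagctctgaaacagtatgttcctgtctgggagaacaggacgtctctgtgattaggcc
C3ar1 (chr6:122856108-122856407, strand -): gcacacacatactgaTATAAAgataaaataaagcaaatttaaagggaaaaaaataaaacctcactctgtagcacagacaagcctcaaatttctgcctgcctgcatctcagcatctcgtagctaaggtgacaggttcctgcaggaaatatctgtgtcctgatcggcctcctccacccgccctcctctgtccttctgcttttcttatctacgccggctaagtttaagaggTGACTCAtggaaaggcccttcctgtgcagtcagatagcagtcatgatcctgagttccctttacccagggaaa
C3 (chr17:57228087-57228386, strand -): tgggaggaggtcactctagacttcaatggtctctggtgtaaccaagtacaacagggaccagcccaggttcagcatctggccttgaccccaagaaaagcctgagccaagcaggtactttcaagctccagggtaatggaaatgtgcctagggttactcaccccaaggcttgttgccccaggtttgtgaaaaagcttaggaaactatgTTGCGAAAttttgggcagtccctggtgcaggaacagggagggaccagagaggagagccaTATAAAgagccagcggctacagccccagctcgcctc

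The motifs were searched on both strands: the PU.1 core GAGGAAG, an interferon response element, a GAS element TTCNNNGAA, a kappaB site, a MAF recognition motif TGCTGAC, an AP-1 site TGANTCA, a relaxed C/EBP site TTGCNNAA and the TATA box TATAAA. No match overlapped another. The PU.1 core was found in 1 of the 6 windows, in C1qc 194 bases before the start, against 13.6% of all 32851 windows of that length. AP-1 was found in C3ar1, 22 bases before the start (7.81% of all windows). The C/EBP letters were found in C3, 45 bases before the start (10.8% of all windows), and TATAAA in C3ar1 and C3 (13.6% of all windows), 235 bases before and 14 bases after the start. None of the 6 windows held the interferon response element (3.44% of all windows), GAS (8.30%), kappaB (0.411%) or MAF motif (4.67%). C1qb and C1qc therefore shared none of these motifs in these windows, which says only that the letters are not there. The GC content of the C1qb, C1qc, C3ar1 and C3 windows was 56.3%, 53.3%, 46.0% and 53.3%, against a median of 52.7% over all windows.

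Kidney libraries carried far more C1q and anaphylatoxin receptor transcript than spleen and marrow libraries, while the factors split. Over all genes tested with edgeR's quasi-likelihood test (10626 genes, Benjamini-Hochberg adjusted p under 0.05), 7.83% were higher and 5.9% lower in kidney. The higher genes were 57.0% of those called, against 42.7% on log2(FPKM + 1) and 46.8% with limma-voom. Among the members, 3 of 3 C1q subunits, 2 of 2 receptors and 1 of 4 factors (Cfb) rose and 1 factor (C3) fell, and the remaining factors, C4b and Cfp, had no call. The median log2 fold change, kidney over spleen and marrow, was 7.47 for the C1q subunits, 4.67 for the receptors and 0.57 for the factors, against 0.05 over all genes tested. Every kidney library lay above every spleen and marrow library for 7 of the 9 members, a pattern seen in 19.2% of all genes tested, and below for 1 member, as for 18.8% of all genes. Macrophage markers moved in the same direction: 6 of the 10 listed rose and Timd4 had no count in any library, and their sum was 1115 to 1432 CPM in kidney against 342 to 361 CPM in spleen and marrow. Most of the spleen and marrow sum was Emr1 and Trem2, with folds of 1.98 and 2.71, while Mertk, Pf4, Axl and Mrc1 had folds of 99.0, 80.9, 34.8 and 22.1. Mertk had 2, 1 and 0 counts in spleen and marrow replicates 2, 24 and 26, under a floor of 3 counts, so its fold is uncertain. Cd163 overlapped without a call (edgeR adjusted p = 0.502), and Folr2 and Cd5l were under the filter on low counts. Platelet markers moved in that direction too: 2 of 4 rose, and their sum was 12.2 to 56.9 CPM in kidney against 2.87 to 5.14 CPM in spleen and marrow. Pf4, listed here as a macrophage marker, is also a platelet gene. The part of these markers in the members' differences was not tested.

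**Figure D1:**
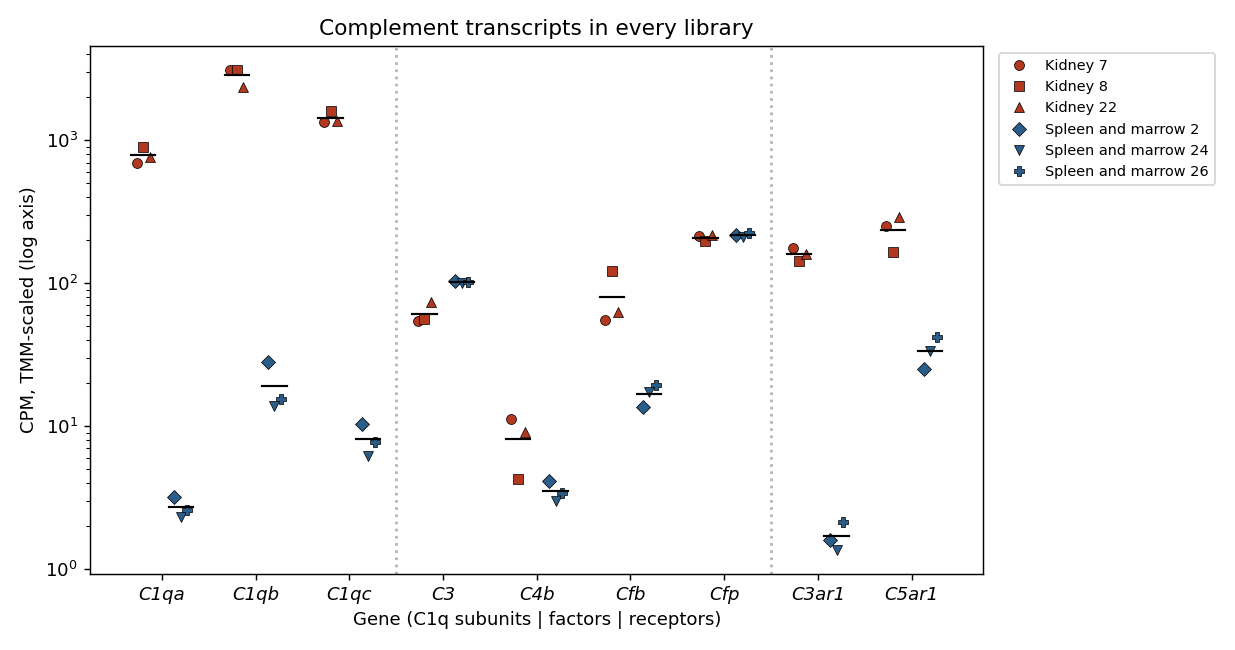
Level of each member in every library, in CPM scaled with TMM on a log axis, kidney libraries left of spleen and marrow libraries for each gene and black lines for the group means (n = 3 each). C1qa, C1qb, C1qc and C3ar1 are separated by the widest gaps, C5ar1 and Cfb by smaller ones, C3 is lower in kidney, and the groups overlap for Cfp.

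C1qb, the B chain, was the most abundant member in kidney. It had 3101, 3115 and 2383 CPM in kidney replicates 7, 8 and 22 and 28.3, 14.0 and 15.4 CPM in spleen and marrow replicates 2, 24 and 26. The groups did not overlap, and the fold was 149 (7.22 ± 0.34 SE on the log2 scale, adjusted p of 5.8e-05 in edgeR). C1qc, the C chain, had 1336, 1594 and 1370 CPM in kidney replicates 7, 8 and 22 and 10.3, 6.16 and 7.72 CPM in spleen and marrow replicates 2, 24 and 26. Its fold was 177, again with no overlap. C1qa, the A chain, had 700, 901 and 770 CPM in kidney replicates 7, 8 and 22 and 3.22, 2.33 and 2.57 CPM in spleen and marrow replicates 2, 24 and 26. Its fold of 289 was the largest among the members (log2 fold change 8.18, 95% interval 7.68 to 8.68). All 3 subunits were highest in replicate 8 among kidney libraries and in replicate 2 among spleen and marrow libraries, and on CPM the highest library exceeded the lowest by at most 1.31 times in kidney and by up to 2.02 times in spleen and marrow. On FPKM that range was wider in kidney for C1qa and C1qc, at 1.70 and 1.72 times in kidney and 1.14 and 1.60 times in spleen and marrow. Kidney replicate 8 also held the most endothelial and the least tubule marker RNA. The smallest C1q value, 17 counts of C1qa in spleen and marrow replicate 24, stood above the floor of 3 counts, so the low group was measured and not only bounded.

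Together the C1q genes made up 0.518% ± 0.0676 of all counts in kidney libraries and 0.00293% ± 0.00100 in spleen and marrow libraries (SD, n = 3 each). On the length-scaled FPKM values that the authors deposited, C1qb ranked 72nd, 76th and 120th of 24043 rows in kidney replicates 7, 8 and 22, and 2661st, 3759th and 3623rd in spleen and marrow replicates 2, 24 and 26. In all 6 libraries the FPKM level of C1qb was above that of C1qc, and that of C1qc above that of C1qa. The FPKM of C1qb was 3.75 ± 0.686 times that of C1qa in kidney and 6.82 ± 2.34 times in spleen and marrow (SD, n = 3 each). Summed over the subunits, C1q reached 5136, 5609 and 4522 CPM in kidney replicates 7, 8 and 22 and 41.8, 22.4 and 25.7 CPM in spleen and marrow replicates 2, 24 and 26.

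The share of the A chain in the C1q counts differed between the groups. C1qa made up 13.6% (95% exact binomial interval 13.3 to 14.0), 16.1% (15.7 to 16.4) and 17.0% (16.4 to 17.6) of C1q counts in kidney replicates 7, 8 and 22. In spleen and marrow replicates 2, 24 and 26 it made up 7.69% (5.17 to 10.9), 10.4% (6.16 to 16.1) and 10.0% (6.51 to 14.5), on 364, 164 and 240 C1q counts. The intervals cover counting error only, and those of spleen and marrow replicates 24 and 26 reach into the kidney range. C1qb made up 56.2% ± 3.88 of C1q counts in kidney and 63.3% ± 3.90 in spleen and marrow, and C1qc 28.2% ± 2.14 and 27.4% ± 2.64 (SD, n = 3 each), with overlap for both.

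**Figure D2:**
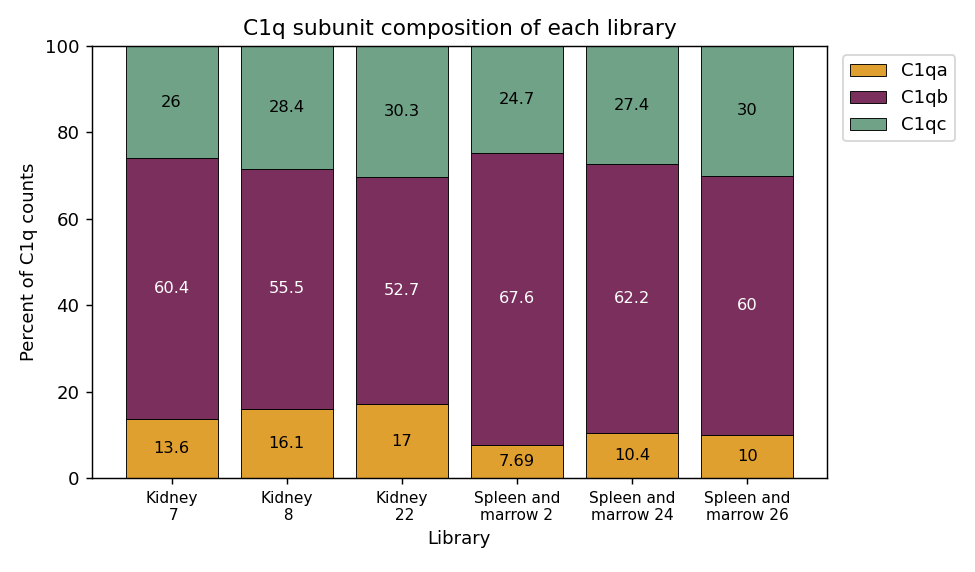
Share of the C1q counts taken by C1qa, C1qb and C1qc in each library, in percent, with kidney libraries on the left. C1qa takes 13.6% to 17.0% in kidney and 7.69% to 10.4% in spleen and marrow, while the shares of C1qb and C1qc overlap between the groups.

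The receptors for the anaphylatoxins both rose, C3ar1 by more than C5ar1. C3ar1, the C3a receptor, had 176, 142 and 161 CPM in kidney replicates 7, 8 and 22 and 1.61, 1.37 and 2.14 CPM in spleen and marrow replicates 2, 24 and 26, where it rested on 14, 10 and 20 counts. The groups did not overlap, at a fold of 91.9 (log2 fold change 95% interval 5.97 to 7.08). C5ar1, the C5a receptor, had 252, 166 and 292 CPM in kidney replicates 7, 8 and 22 and 25.0, 33.7 and 42.1 CPM in spleen and marrow replicates 2, 24 and 26. It did not overlap either, at a fold of 7.03 (log2 fold change 2.81 ± 0.28 SE, edgeR adjusted p = 0.00109). On CPM both receptors were lowest in kidney replicate 8, the library in which the C1q subunits were highest, and both were highest in spleen and marrow replicate 26. On the FPKM scale C5ar1 stood above C3ar1 in every library, by 2.63 ± 0.618 times in kidney and by 36.1 ± 8.22 times in spleen and marrow (SD, n = 3 each).

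Factor B was the factor that rose. Cfb, the protease of the alternative pathway, had 55.7, 122 and 63.4 CPM in kidney replicates 7, 8 and 22 and 13.7, 17.2 and 19.3 CPM in spleen and marrow replicates 2, 24 and 26. The groups did not overlap, and the fold was 4.80 (log2 fold change 2.26 ± 0.33 SE, edgeR adjusted p = 0.00529). Kidney replicate 8, with the highest Cfb, also held the highest endothelial sum (828 CPM, against 23.5 and 13.2 CPM in kidney replicates 7 and 22). Without that library Cfb was still called (edgeR adjusted p = 0.00659, log2 fold change 1.82). The endothelial sums of kidney replicates 7 and 22 also lay above those of spleen and marrow (4.38 to 10.1 CPM). The part of endothelial or other kidney RNA in Cfb was not tested.

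C3, which encodes the central component, was the member that fell. It had 54.3, 56.4 and 73.4 CPM in kidney replicates 7, 8 and 22 and 103, 99.7 and 102 CPM in spleen and marrow replicates 2, 24 and 26, so it was lower in each kidney library, 1.67-fold on average (log2 fold change -0.74 ± 0.17 SE, edgeR adjusted p = 0.0271). Dropping kidney replicate 7 or 8, or spleen and marrow replicate 2, 24 or 26, ended the call, with adjusted p in edgeR between 0.0655 and 0.122 and log2 fold changes between -0.77 and -0.64, and it held without kidney replicate 22 (adjusted p = 0.00378). C4b, which encodes C4, had 11.1, 4.30 and 9.10 CPM in kidney replicates 7, 8 and 22 and 4.13, 3.01 and 3.43 CPM in spleen and marrow replicates 2, 24 and 26. Its groups did not overlap, but kidney replicate 8 lay close to spleen and marrow replicate 2, and the log2 fold change of 1.21 (95% interval 0.10 to 2.31) missed the threshold (edgeR adjusted p = 0.147). C4b has a near-identical copy, C4a, with 6, 1 and 0 counts in kidney and 4, 0 and 1 counts in spleen and marrow. On FPKM C4a had 0.244 in kidney replicate 22 and 0.0926 in spleen and marrow replicate 24, where it had 0 counts. Counts and FPKM thus differ for this gene. How shared reads were handled is not known, so the value of C4b is uncertain.

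Properdin was level across the libraries. Cfp had 214, 196 and 216 CPM in kidney replicates 7, 8 and 22 and 219, 212 and 225 CPM in spleen and marrow replicates 2, 24 and 26. The groups overlapped, and the log2 fold change was -0.07 with a 95% interval from -0.35 to 0.22 (edgeR adjusted p = 0.769), which leaves room for a difference of that size. Cfp was the most abundant member by FPKM in each spleen and marrow library, at 76.4, 74.4 and 78.9 FPKM in replicates 2, 24 and 26, and ranked behind the 3 C1q subunits in each kidney library. The summed level of the 4 factors, most of it Cfp, was 335 to 379 CPM in kidney and 332 to 350.5 CPM in spleen and marrow, unlike the sums of the C1q subunits and of the receptors (309 to 453 CPM in kidney and 26.6 to 44.3 CPM in spleen and marrow).

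**Figure D3:**
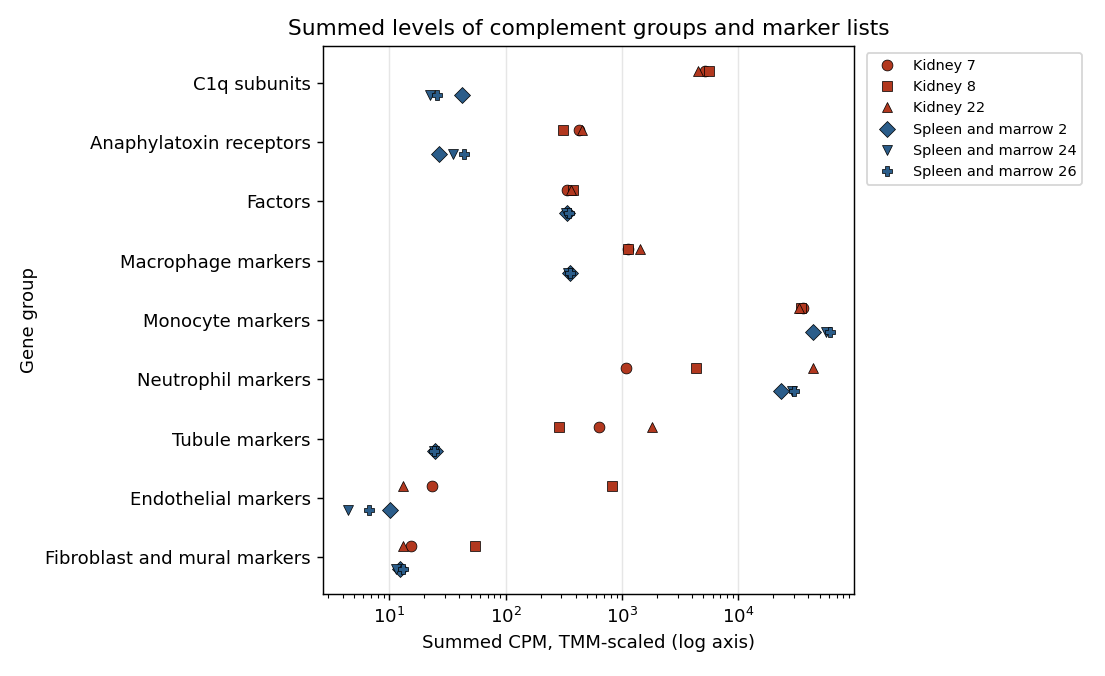
Summed CPM of the C1q subunits, receptors, factors and marker lists in each library on a log axis, kidney libraries above spleen and marrow libraries in each row. The C1q sum is 4522 to 5609 CPM in kidney and 22.4 to 41.8 CPM in spleen and marrow, the sum of the factors overlaps, and the tubule and endothelial sums spread widely among the kidney libraries.

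Ratios between members within a library set their changes against one another, since depth and scaling cancel. They were taken after adding 0.5 to each count. With 3 libraries against 3, an exact permutation test (two-sided) cannot give a p below 0.1, so none of the 8 ratios can pass 0.05. The C3ar1 to C5ar1 ratio of counts was 0.700, 0.855 and 0.552 in kidney replicates 7, 8 and 22 and 0.0664, 0.0426 and 0.0521 in spleen and marrow replicates 2, 24 and 26, a log2 difference of 3.71 with no overlap (exact permutation p = 0.1, adjusted over the 8 ratios 0.133). The Cfb to C3 ratio was 1.03, 2.16 and 0.864 in kidney and 0.133, 0.173 and 0.189 in spleen and marrow, a log2 difference of 2.93 with no overlap. On FPKM, Cfb stood above C3 in each kidney library and below it in each spleen and marrow library. Cfb had 11.5, 24.5 and 9.04 FPKM in kidney replicates 7, 8 and 22, against 5.53, 6.14 and 5.79 FPKM for C3. In spleen and marrow replicates 2, 24 and 26 the values were 2.67, 3.44 and 3.84 against 10.5, 10.2 and 10.5 FPKM. The C4b to C3 and Cfp to C3 ratios were also higher in kidney without overlap, by 1.85 and 0.68 on the log2 scale. All ratios over C3 carry its lower level in kidney (log2 fold change -0.74), so they are not separate results. Cfp itself was level (log2 fold change -0.07).

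Within C1q, the ratio of C1qa to C1qb counts was 0.226, 0.289 and 0.323 in kidney replicates 7, 8 and 22 and 0.116, 0.171 and 0.170 in spleen and marrow replicates 2, 24 and 26, a log2 difference of 0.88 with no overlap. C1qa to C1qc differed by 0.67 on the log2 scale with no overlap (exact permutation p = 0.1 for both, adjusted 0.133). C1qb to C1qc overlapped, with a log2 difference of -0.21 (exact permutation p = 0.4, adjusted 0.4). C3ar1 to C1qb overlapped as well, at a log2 difference of -0.76 (exact permutation p = 0.2, adjusted 0.229). This ratio was 0.0569, 0.0457 and 0.0676 in kidney replicates 7, 8 and 22 and 0.0588, 0.102 and 0.142 in spleen and marrow replicates 2, 24 and 26, where its spread was wider.

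**Figure D4:**
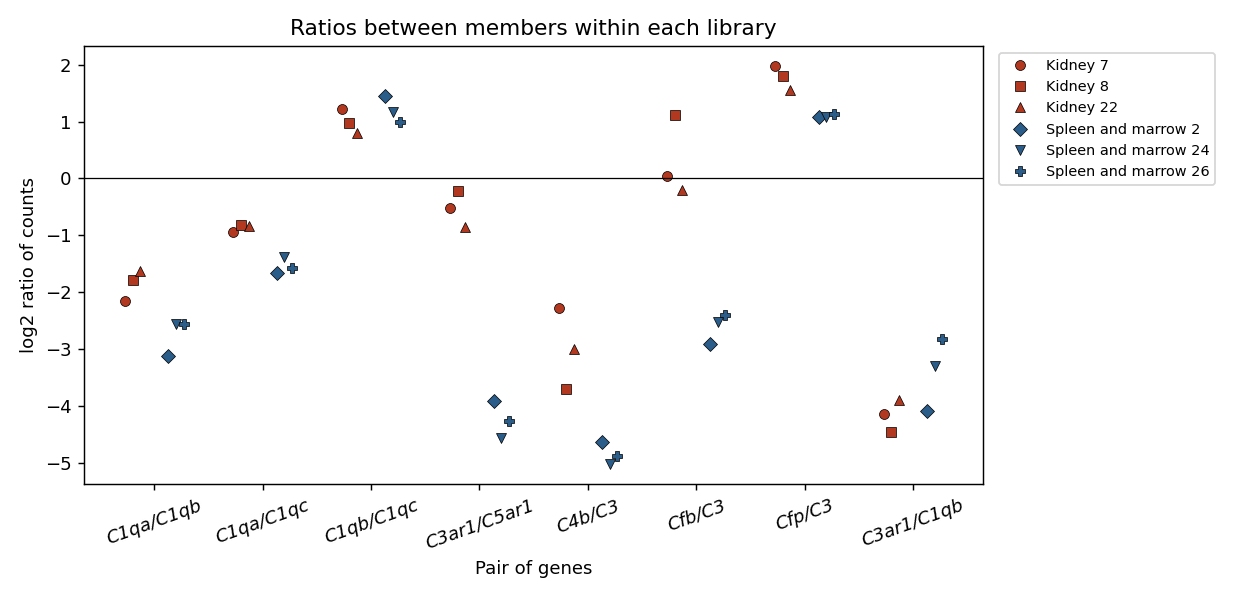
log2 ratio of counts for 8 pairs of members in each library, kidney libraries left of spleen and marrow libraries. The groups do not overlap for 6 pairs, with the widest gap for C3ar1/C5ar1 (a log2 difference of 3.71), and they overlap for C1qb/C1qc and C3ar1/C1qb.

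Of 51 other complement genes with a row, 17 passed the filter on low counts, 6 of them rose and none fell by edgeR. Over all genes tested, 7.83% rose and 5.9% fell. The median log2 fold change of the 17 was 0.48, against 0.05 over all genes tested. Of the 6, Itgax, Clu and Cpn1 passed the filter only through their kidney counts. They could be tested only because kidney was high, so the share that rose is partly set by the filter. The 34 genes under the filter included 13 with no count in any library, and a floor of 3 counts corresponds to 0.322 to 0.881 CPM in a library. Complement genes named from here on outside the 6 that rose and Calr, Itgb2, C1qbp and Fcnb were chosen after their values were seen. Fcnb was among the 4 most abundant without a call by average CPM. By the mean of log2 CPM Cr1l, a membrane regulator, stood above it, with a log2 fold change of -0.05 and no call (edgeR adjusted p = 0.917).

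Among complement receptors and binding partners on the list, 4 of 9 tested rose, against 7.83% of all genes tested. Itgax, 1 of the 4, passed the filter on low counts only through kidney. Lair1, which encodes an inhibitory receptor for collagen that also binds the collagen-like part of C1q, had 301, 305 and 384 CPM in kidney replicates 7, 8 and 22 and 71.7, 63.9 and 66.0 CPM in spleen and marrow replicates 2, 24 and 26. It did not overlap, and rose by 2.30 ± 0.16 (SE) on the log2 scale with an adjusted p of 0.000387 in edgeR. Itgax and Itgam, the alpha chains of complement receptors 4 and 3, which bind cleaved C3, rose by log2 fold changes of 3.29 ± 0.46 and 1.25 ± 0.31 (SE). Lrp1, a scavenger receptor that with calreticulin takes part in C1q-bound uptake, rose by 1.32 ± 0.29. Dropping kidney replicate 7, or spleen and marrow replicate 2, 24 or 26, ended the calls of Itgam and Lrp1, with adjusted p in edgeR up to 0.159 and 0.123. Itgb2, the shared beta chain of those receptors, had 217, 185 and 261 CPM in kidney replicates 7, 8 and 22 and 132, 166 and 179 CPM in spleen and marrow replicates 2, 24 and 26, and its difference of 0.48 on the log2 scale missed the threshold (edgeR adjusted p = 0.135). Calr, which encodes calreticulin, and C1qbp, a mitochondrial protein also reported to bind C1q, had log2 fold changes of -0.09 (95% interval -0.56 to 0.39) and -0.06 (-0.79 to 0.66) without a call. C5ar2, the second C5a receptor, whose gene neighbours C5ar1, had 7.94, 4.55 and 3.52 CPM in kidney replicates 7, 8 and 22 and 1.95, 1.92 and 1.18 CPM in spleen and marrow replicates 2, 24 and 26. It did not overlap but missed the threshold (edgeR adjusted p = 0.0825, and 0.0182 without kidney replicate 22).

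Of the soluble regulators 2 of 3 tested rose, against 7.83% of all genes tested. Both passed the filter on low counts only through kidney, where they were high, so this share is set in part by the filter. Clu, which encodes clusterin, an inhibitor of the lytic complex, had 13.6, 21.2 and 70.5 CPM in kidney replicates 7, 8 and 22 and 1.84, 1.23 and 0.750 CPM in spleen and marrow replicates 2, 24 and 26 (edgeR adjusted p = 0.00618). Cpn1, the catalytic subunit of the carboxypeptidase that trims C3a and C5a, had 2.49, 2.40 and 9.40 CPM in kidney and 0.230, 0.410 and 0.214 CPM in spleen and marrow (edgeR adjusted p = 0.0203). The spleen and marrow values of Cpn1 rested on 2, 3 and 2 counts, at or under a floor of 3 counts. Its call did not survive dropping spleen and marrow replicate 2, 24 or 26 (edgeR adjusted p up to 0.129). With limma-voom it was not called either (adjusted p = 0.0628). Both were highest in kidney replicate 22, the library with the highest tubule sum (1799 CPM, against 633 and 285 CPM in kidney replicates 7 and 8). That library also had the highest neutrophil sum (43717 CPM, against 1074 and 4343 CPM). The part of tubule or neutrophil RNA was not tested. Without replicate 22 Clu and Cpn1 were still called, with log2 fold changes of 3.74 and 3.05 against 4.75 and 3.96 with it. Serping1, the C1 inhibitor, was under the filter with 25, 84 and 0 counts in kidney and 0, 0 and 1 counts in spleen and marrow. Cd59a, a membrane guard against the lytic complex, was under it with 27, 348 and 0 counts in kidney and 4, 3 and 0 counts in spleen and marrow, the highest count in the library with the highest endothelial sum. Without kidney replicate 22 the other complement genes that rose numbered 11, with Serping1, Cd59a, Cfi, C5ar2 and Cd93 added, and Fcnb fell.

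Several other components of the cascade had few or no counts. C1ra, a protease of the C1 complex, had 11, 15 and 6 counts in kidney replicates 7, 8 and 22 and 10, 12 and 9 counts in spleen and marrow replicates 2, 24 and 26. C1s1, the protease that C1r activates, had 8 counts in kidney replicate 8 and 0 counts in each other library. C2, which joins C4 in the classical convertase, had 11, 6 and 3 counts in kidney and 2, 0 and 2 counts in spleen and marrow. Hc, the mouse gene for C5, had 1 count in all libraries together and Cfd, the protease that cuts factor B, had 2. Of the lytic complex, no count was seen for C7, C8a, C8b or C9. C6 had 0, 0 and 8 counts in kidney replicates 7, 8 and 22 and 0, 3 and 2 counts in spleen and marrow replicates 2, 24 and 26. C8g passed the filter with 7, 10 and 0 counts in kidney and 10, 11 and 17 counts in spleen and marrow, and was not called (edgeR adjusted p = 0.524). These levels are of transcript in the cells sequenced, not of plasma protein. Fcnb, a lectin-pathway ficolin of neutrophils and monocytes in mouse, had 2.13, 10.2 and 111 CPM in kidney replicates 7, 8 and 22 and 142, 164 and 167 CPM in spleen and marrow replicates 2, 24 and 26. It lay lower in each kidney library without a call (edgeR adjusted p = 0.279, and 0.00139 without kidney replicate 22). Among kidney libraries Fcnb ranked in the same order as the summed neutrophil markers (1074, 4343 and 43717 CPM). Across the groups that order did not hold. Kidney replicate 22 exceeded every spleen and marrow library on those markers (23372 to 30025 CPM), yet had less Fcnb. Whether neutrophil RNA makes up part of the Fcnb level was not tested.

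**Figure D5:**
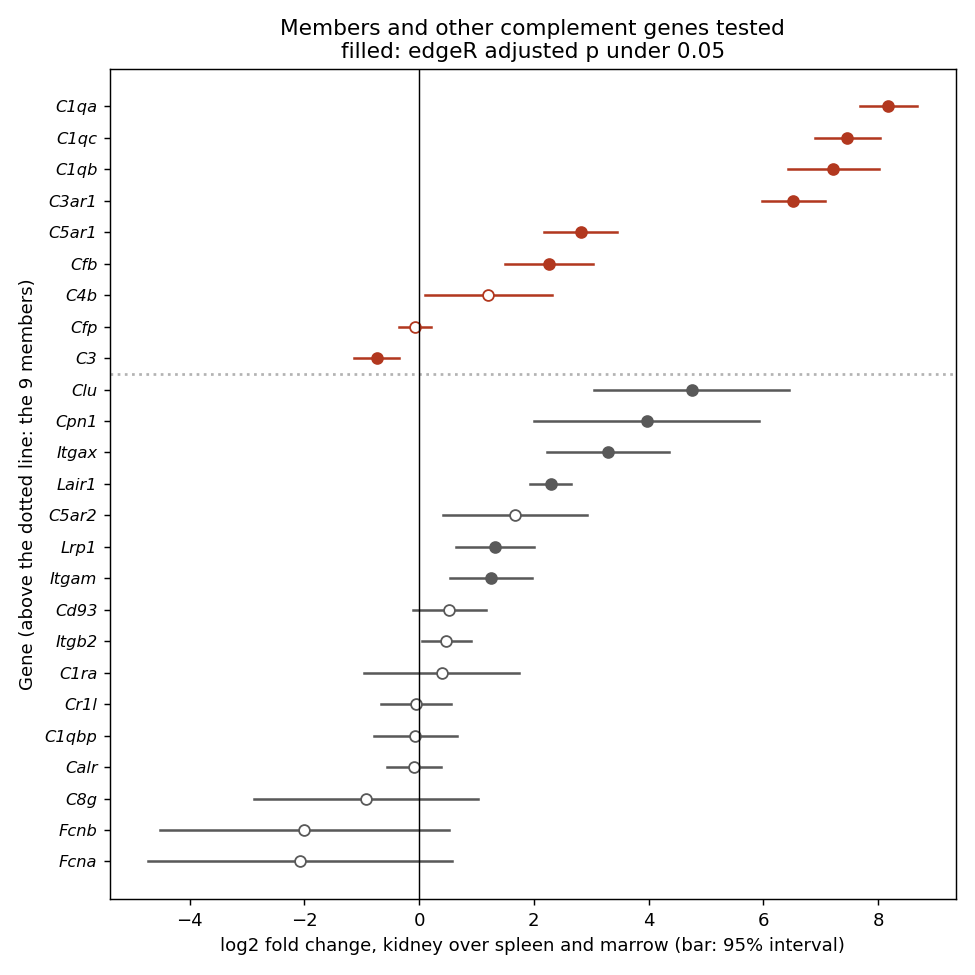
log2 fold change, kidney over spleen and marrow, with its 95% interval for the 9 members above the dotted line and other complement genes tested under it, filled points marking an edgeR adjusted p under 0.05. The C1q subunits and C3ar1 lie between 6.52 and 8.18, Cfb and C5ar1 between 2.26 and 2.81, and C3 is the filled point left of 0.

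Genes with profiles most like those of the members were taken from 5156 genes whose log2 CPM averaged 4 or more, by the root mean square difference of centred log2 CPM over the 6 libraries. The nearest to the mean C1q profile were Igfbp7, Pf4, Cxcl16, Slamf9 and Spp1, at 0.60, 0.80, 0.86, 1.05 and 1.06 log2 units. Their log2 fold changes lay between 5.93 and 7.68, and that of Igfbp7 (7.68) was below that of C1qa (8.18) and above those of C1qb (7.22) and C1qc (7.47). Igfbp7 was highest in kidney replicate 8 (559 CPM, against 128 and 189 CPM in kidney replicates 7 and 22), as was the endothelial sum. Spp1 was highest in kidney replicate 22 (7777 CPM, against 1917 and 1794 CPM), as were the tubule and neutrophil sums. The part of such RNA in these genes was not tested. C3ar1 lay nearest to Pf4, Cxcl16 and Slamf9, at 0.38, 0.53 and 0.69 log2 units. The nearest to C5ar1 were Cx3cr1, St3gal5 and Fcgr4, at 0.25, 0.27 and 0.31 log2 units. C3 lay nearest to Dap, Psph and Hsd17b10, and Cfp to Clk3, Nedd8 and Pet100, all within 0.06 log2 units.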

How the data were processed

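Gene expression was measured by RNA sequencing. Per the labels' protocols, 2 ng of RNA entered SMART-Seq v4 cDNA synthesis and, after shearing near 150 bp, ThruPLEX library preparation, which does not mark strand. The authors deposited raw counts per gene symbol (24047 rows) and FPKM values per gene (24043 rows), scaled for depth and length. The submitters' processing notes list build mm9, STAR 2.5, bcl2fastq 2.18 and Cufflinks 2.2.1 without roles. Which program and annotation made the counts is not given in the sources used here. The test on counts was that of edgeR 4.0.16 under R 4.3.3 (filterByExpr, TMM, quasi-likelihood F test, two-sided, Benjamini-Hochberg over 10626 genes), kidney against spleen and marrow, after a check on simulated data. SEs are log2 fold changes over the root of F, and CPM uses TMM-scaled library sizes. FPKM values served to compare levels between genes within a library and as an alternative. Other complement genes are a list of 51 genes with a row. The listed names C1s and Cd55b were matched to the rows C1s1 and Daf2 through RefSeq names. A gene of this list is counted but not reported here by name. By rule, named were the 9 members, each other complement gene with a call, and the 4 most abundant tested without one, taken by average CPM. Named too were the nearest profiles (5 for C1q, 3 for each of C3ar1, C5ar1, C3 and Cfp) and 5 defining monocyte markers. Other complement genes and cell markers named with values were chosen after their values were seen. Members and lists were chosen with earlier results of these data known. Alternatives were DESeq2 1.42.0, its size factors, library size scaling, limma-voom and limma-trend on FPKM (limma 3.58.1), other filters and thresholds, a robust fit, summing replicates 24 and 26, and leaving out each library. A floor is 3 counts. Reads carry no molecular identifiers, so intervals on counts cover counting error only. Figures were drawn with matplotlib 3.10.9.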

Additional observations from a re-analysis of the deposited data

How the results depend on the processing

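Calls of the C1q subunits, both receptors and Cfb held in all 18 alternatives, and C4b and Cfp had no call in any. The log2 fold changes ranged from 7.15 to 8.30 for C1qa, 7.01 to 7.59 for C1qb, 7.04 to 7.67 for C1qc, 3.58 to 6.70 for C3ar1, 2.48 to 3.01 for C5ar1 and 1.78 to 2.48 for Cfb. The lowest values of C1qa and C3ar1 came from log2(FPKM + 1), where the pseudocount lies above the spleen and marrow level of C3ar1. C3 fell in 10 of 18: factors called lower numbered 0 in the test against a log2 fold of 1, at a threshold of 0.01 and with replicates 24 and 26 summed, and 0 to 1 on leaving out 1 library. Its direction did not change in these. Other complement genes that rose numbered 3 in each of those 3 settings and 3 to 11 on leaving out 1 library, and those that fell numbered 1 with limma-voom and 0 to 1 on leaving out 1 library.

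Over all genes, the number higher and lower in kidney was 372 and 146 against a log2 fold of 1, 322 and 189 at 0.01, and 299 and 201 with replicates 24 and 26 summed. DESeq2 gave 1164 and 995, and limma-trend 468 and 629 on log2(FPKM + 1) and 543 and 586 on log2(FPKM + 0.1). On leaving out 1 library they ranged from 260 to 1569 and from 179 to 1215, highest without kidney replicate 22 and lowest without spleen and marrow replicate 26. Calls higher in kidney were 832 of the 1459 in the count test. The median log2 fold change of all genes was 0.05, against 0.11 with library size scaling, -0.14 on log2(FPKM + 0.1) and 0.18 without a filter. No ratio changed sign. On FPKM the C3ar1/C1qb difference was -0.71 without a pseudocount (exact permutation p = 0.3), an alternative chosen after seeing the data, and -1.45 with 0.1 added to each value (exact permutation p = 0.1), which is close to the spleen and marrow level of C3ar1. Left-out libraries moved the log2 differences to between 0.70 and 1.03 for C1qa/C1qb and between -1.11 and -0.47 for C3ar1/C1qb. No paired analysis was possible because the groups share no replicate numbers.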
